A study of Saccharomyces cerevisiae with 3 samples.

Results

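The genes described here encode the core machinery that removes the cap and tail of an mRNA and degrades its body from the 5′ end in budding yeast, Saccharomyces cerevisiae. They were chosen by symbol from the array platform's gene annotation, as the 10 genes DCP1, DCP2, DHH1, PAT1, LSM1, XRN1, EDC3, SCD6, CCR4 and POP2 out of 5574 genes with a named spot. The study transferred yeast quickly from a carbon source that can be fermented to one that cannot. Each of 3 samples, titled G0, Y5 and Y10, was hybridised to 1 two-colour array, with RNA of the mRNP fraction (messenger ribonucleoprotein, mRNA with its proteins and few or no ribosomes) labelled with Cy3 and RNA of a fraction named Poly, read here as polysomes, labelled with Cy5. The labels do not explain the letters or numbers in the titles, and no strain, genotype, medium or time was found in them, so the titles serve as names.

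In yeast most mRNAs are degraded in a fixed order. The CCR4-NOT complex shortens the poly(A) tail, the DCP1-DCP2 enzyme then removes the 5′ cap, and the nuclease XRN1 digests the exposed transcript. Activators of decapping such as DHH1, PAT1 and the LSM1-containing ring act on mRNAs leaving translation, and these proteins gather with such mRNAs in cytoplasmic processing bodies when yeast loses glucose. The arrays did not measure these activities: they measured how the mRNAs that encode the factors were divided between the 2 fractions.

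A level here is the log2 ratio of the 2 channels for a gene relative to the median of its array, with repeat spots averaged. Higher levels are read as more of the mRNA in the polysome fraction. This direction (Cy5 over Cy3) is the usual one for arrays of this kind, but it is assumed and not stated with the values. The sample titles read mRNP vs. Poly, with mRNP named first, and do not say which channel was divided by which. All signs turn if the direction is the opposite. The base of the logarithm is assumed too. GCN4, a classic translationally repressed mRNA of well-fed yeast, lay at percentile 5.82 of the genes on G0, 96.7 on Y5 and 30.2 on Y10. Its low place on G0 was the other basis for the direction. That basis holds only if G0 was the well-fed sample, which the labels do not state. With 1 array per sample there was no replicate and no dye swap, so no test across arrays was possible. Signal intensities were not used here, so the precision rests on the number of arrays and on repeat spots. From genes with 2 spots, the SD of 1 spot came to 0.453 on G0 (882 genes), 0.402 on Y5 (886) and, over 453 genes, 0.436 for Y10. It leaves out how cultures or hybridisations vary. The 2 spots of such genes correlated with r = 0.576 on G0, 0.643 on Y5 and 0.309 on Y10. For differences between arrays r was 0.543 (Y5 minus G0), 0.268 (Y10 minus G0) and 0.197 (Y10 minus Y5). Values that use Y10 thus repeated least well between spots. Because levels are relative to the array median, a shift of all mRNAs together cannot be seen, and a ratio does not tell a gain in one fraction from a loss in the other.

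The rows of Y10 were numbered differently from those of G0 and Y5. As deposited, Y10 was unrelated to Y5 across spots (r = 0.0155). Its spots followed 32 sectors of 21 rows of 12 spots, against 23 rows on the other arrays. With the first 16 rows of each sector set at the same place in the larger sectors the correlation was r = 0.463, with a median of 0.521 over these 16 rows (lowest 0.193). Y10 placed in this way correlated with G0 with r = 0.211, and G0 and Y5 correlated with r = 0.389. All Y10 values rest on this numbering, which was inferred from the data. LSM1 and the second spot of SCD6 fall in the last 5 rows of a Y10 sector, which were left out, and the first spot of XRN1 falls in the 2 rows with no counterpart on Y10. Moved on by 2 rows, those last 5 rows correlated with Y5 with a median r of 0.238 over the 5 rows (0.130 to 0.308), against −0.0128 in place. That second placement was found after the data were seen and is less sure, so values that use it are marked.

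**Figure D1:**
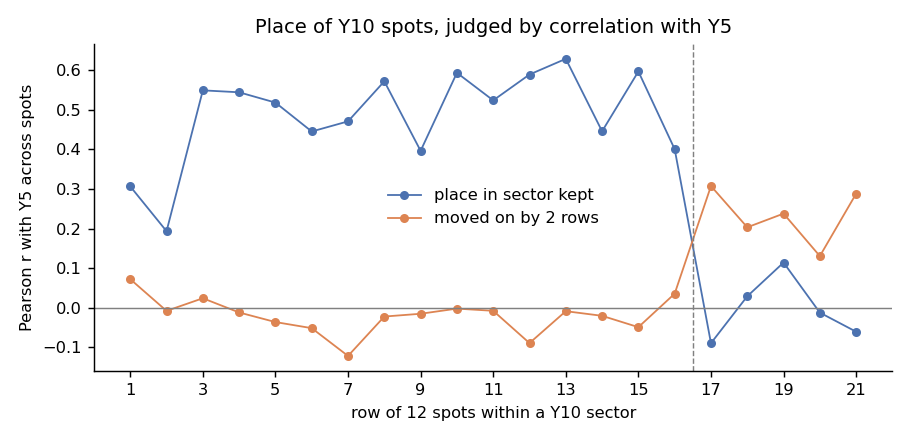
Pearson correlation of Y10 with Y5 across spots (vertical axis) for each row of 12 spots within the Y10 sectors (horizontal axis), with spots at the same place in the sector (blue) or moved on by 2 rows (orange). Rows 1 to 16, left of the dashed line, correlate in place and are used. Rows 17 to 21 correlate more after the move (0.130 to 0.308) than in place (−0.0901 to 0.114). Their median after the move, 0.238, is below that of rows 1 to 16, 0.521.

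DHH1 and PAT1 had the highest levels of the members on G0 and Y5, with XRN1 beside them on Y10. DHH1 (YDL160C), a DEAD-box RNA helicase that represses translation and activates decapping, stood at 1.08 on G0, 1.65 on Y5 and 0.92 on Y10, or percentiles 92.1, 98.3 and 96.3 of all genes. PAT1 (YCR077C), a scaffold that joins DHH1, the LSM ring and the decapping enzyme, stood at 0.83, 1.38 and 1.04, or percentiles 86.8, 97.0 and 97.4. Both were above the array median on every array by more than the SD of 1 spot. XRN1 (YGL173C), the cytoplasmic 5′ to 3′ exonuclease, stood at 0.68, 0.69 and 0.98 on G0, Y5 and Y10. Its 2 spots gave 0.31 and 1.04 on G0 and 0.43 and 0.95 on Y5, and only the higher one has a place on Y10. On that spot alone XRN1 read 1.04, 0.95 and 0.98, nearly flat over the arrays. PAT1 led XRN1 on G0 by less than the SD of a difference between 2 single spots, 0.640. With each sector centred on its own median XRN1 stood at 0.87 on G0. PAT1 was at most 0.84 on G0 over 6 other ways of processing, so the place of PAT1 there depends on the processing.

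EDC3 (YEL015W), an enhancer of decapping that binds DCP2, lay on the same side with smaller values. Its levels were 0.69, 0.57 and 0.29 in the same order, at percentiles 82.7, 84.2 and 75.3. DHH1, PAT1, XRN1 and EDC3 were thus in the top 25% of genes on all 3 arrays, 4 of the 9 members measured on all of them. Over all genes 8.36% were in the top 25% on all 3 arrays. This count was chosen after the values were seen, and no test was made of it. EDC3 lies just inside the limit on Y10, 0.286, which is smaller than the SD of 1 spot on that array, 0.436. The lower spot of XRN1, 0.31 on G0, lies below the limit of that array, 0.48, and only the higher spot has a place on Y10. With each sector centred on its own median EDC3 stood at 0.34, 0.39 and 0.26, while over 6 other ways of processing the lowest level of DHH1 on any array was 0.74 and that of PAT1 0.69.

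The 2 subunits of the decapping enzyme stood apart by more than the spread of repeat spots on Y10 only. DCP2 (YNL118C), its catalytic subunit, stood at −0.04, 0.06 and 0.36 on G0, Y5 and Y10, at percentiles 46.7, 56.6 and 79.5, each within the SD of 1 spot of the median. DCP1 (YOL149W), the partner subunit that activates DCP2, stood at −0.43 on G0, at 0.24 on Y5 and at −0.76 on Y10. DCP1 was the lowest of the 10 members on G0 (percentile 23.5) and of the 9 on Y10 (percentile 8.59), but not on Y5 (percentile 69.2). These subunits were farthest apart on Y10, where DCP1 was 1.12 below DCP2, against 0.39 below on G0 and 0.19 above on Y5. The SD of a difference between 2 single spots was 0.617 on Y10.

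LSM1 (YJL124C), the subunit that sets the cytoplasmic LSM ring apart from the nuclear one, stood at −0.31 on G0 and 0.21 on Y5. With the last 5 rows moved on by 2 rows its Y10 level was 0.22, close to Y5. SCD6 (YPR129W), which represses translation by binding the initiation factor eIF4G and can activate decapping, was near the median on G0 and low on Y5. Its 2 spots, which lie in the same sector of the array, gave −0.07 and 0.03 on G0 and −0.99 and −0.78 on Y5. On Y10 its first spot gave −0.15. The second spot, in the less sure placement, gave 1.48 there, and the 2 spots then differ by far more than on the other arrays. SCD6 was the lowest member on Y5, at percentile 8.68, with a level of −0.89 that was −0.48 when each sector was centred on its own median.

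Of the deadenylases, CCR4 stayed near the middle of each array and POP2 was low on Y10. CCR4 (YAL021C), the main catalytic subunit of the CCR4-NOT complex, had spots at 0.02 and 0.16 on G0, −0.23 and −0.01 on Y5, and 0.15 and −0.08 on Y10. No CCR4 value was farther from the median than the SD of 1 spot. POP2 (YNR052C), which joins CCR4 to the rest of the complex and is itself a nuclease, stood at 0.24 and 0.26 on G0 and Y5 and at −0.42 on Y10, which is percentile 19.1. The low Y10 value came from a sector whose spots had a median of −0.49 on that array, and POP2 stood at 0.07 when each sector was centred on its own median.

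**Figure D2:**
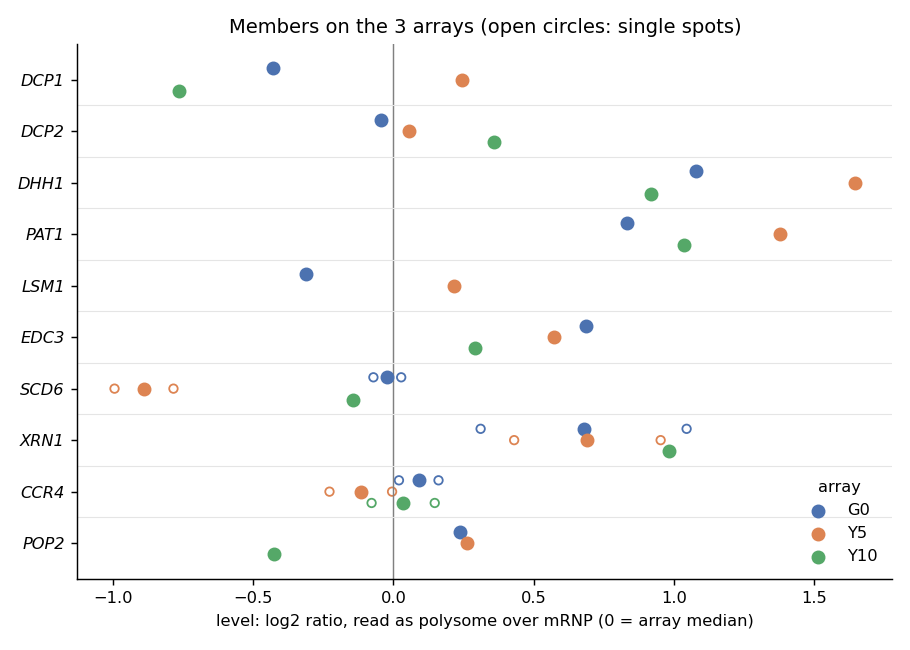
Level of each member on the arrays G0 (blue), Y5 (orange) and Y10 (green), in log2 units with 0 at the array median; filled points are gene values and open circles the single spots of genes with 2 spots. DHH1, PAT1, XRN1 and EDC3 lie to the right of 0 on all 3 arrays, SCD6 lies at −0.89 on Y5 only, and LSM1 has no Y10 point.

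From top to bottom the order on G0 was DHH1, PAT1, EDC3, XRN1, POP2, CCR4, SCD6, DCP2, LSM1 and DCP1. None of the 9 gaps between neighbours on G0 reached the SD of a difference between 2 single spots (0.640), so only distant members of this order stand apart. On Y5, 7 of 9 gaps were below that SD (0.568). The exceptions were the gap of 0.68 between PAT1 and XRN1, below which the other 8 members lay, and the gap of 0.77 between CCR4 and SCD6 at the bottom, which rests on the SCD6 level that sector centring moved. On Y10 none of 8 gaps reached it, and the largest, 0.56, separated PAT1, XRN1 and DHH1 from DCP2 and the rest. From lowest to highest the members spanned 1.51 log2 units on G0, against 2.54 on Y5 and 1.80 on Y10.

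**Figure D3:**
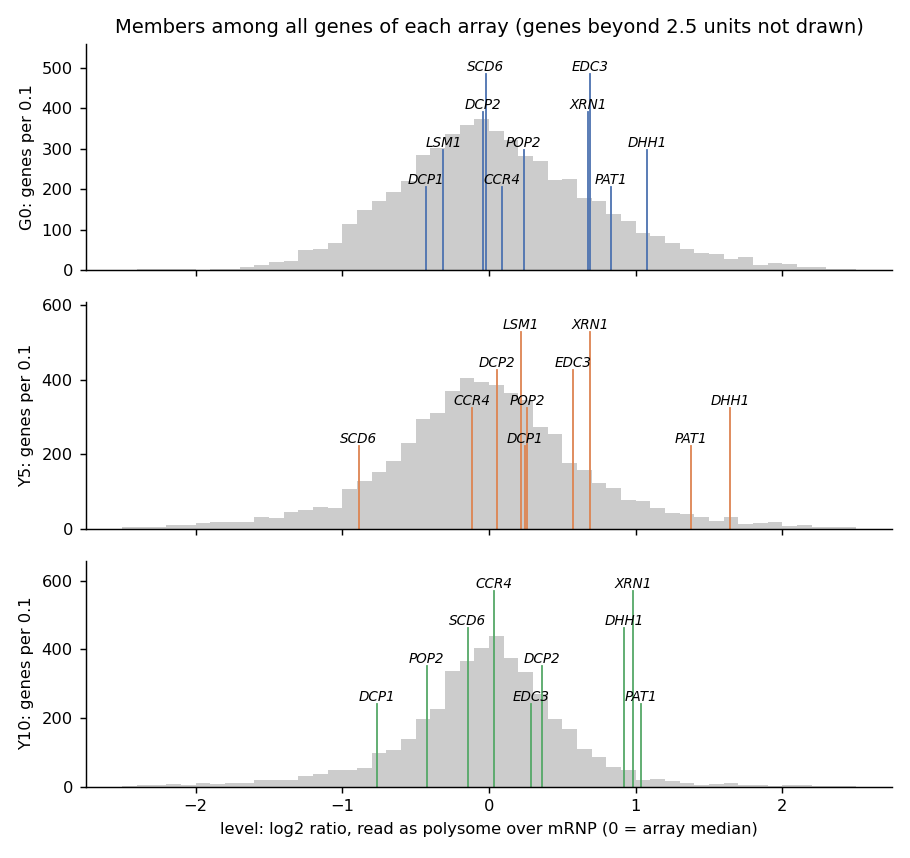
Members (coloured lines; line height has no meaning) drawn on the distribution of all genes (grey, genes per 0.1 log2 unit) of each array, with the level in log2 units on the horizontal axis. DHH1 and PAT1 lie in the upper tail on each array, with XRN1 beside them on Y10, and SCD6 on Y5 and DCP1 on Y10 in the lower tail.

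The medians of the members were 0.16 on G0 (10 genes), 0.25 on Y5 (10 genes) and 0.29 on Y10 (9 genes), against 0.01, −0.04 and −0.002 for all genes. Above the array median lay 6 of 10 members on G0, 8 of 10 on Y5 and 6 of 9 on Y10. Of all genes, 50.3%, 47.2% and 49.8% did. At least 1 log2 unit above the median were DHH1 on G0, DHH1 and PAT1 on Y5 and PAT1 on Y10, where 9.26%, 6.58% and 2.81% of all genes were, and no member was 1 unit below it, where 4.56%, 6.63% and 5.76% of all genes were. The 3 genes whose levels were most like those of DHH1, by root mean square distance over the 3 arrays, were ERG1 (0.056), SCW10 (0.0609) and CIS3 (0.0773). As many as 120 of 4424 genes were within the SD of 1 spot of DHH1, so the 3 names are not set apart. For the median of the 9 members on all 3 arrays the nearest were HHO1, RCK1 and BRF1, among 1538 of 4425 genes within that SD.

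Longer mRNAs can carry more ribosomes. Across all genes levels were higher for genes of greater annotated length, read here as coding length (Spearman's rho 0.317, 0.478 and 0.344 in array order). The genes share an array and are not independent replicates, and no p is given. The members' coding lengths ran from 519 bases (LSM1) and 696 (DCP1) to 4587 (XRN1), with a median of 1588.5 that is longer than 64.2% of genes. Among the members rho was 0.430, 0.20 and 0.717 over 10, 10 and 9 genes. The part of length in the members' levels was not tested.

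Between G0 and Y5 no member differed by 1 log2 unit. Of all 5546 genes 14.5% did, 4.02% higher and 10.5% lower on Y5. The members had a median difference of 0.06, and the median of all genes was −0.007. DCP1 (0.67), DHH1 (0.57), PAT1 (0.54) and LSM1 (0.53) stood higher on Y5, each by more than the SD of 1 spot for this difference, 0.452, but none by 2 such SDs. In linear terms these were 1.60-, 1.48-, 1.46- and 1.44-fold. All 4 genes have 1 spot. SCD6 stood lower by 0.87 (1.82-fold), with its spots at −0.92 and −0.81. Its sector of the array had a median difference of −0.58, the second lowest of 32 sectors, and with sector centring SCD6 differed by −0.29. Whether the place on the array produced the SCD6 difference was not tested. CCR4 (−0.21), EDC3 (−0.11), DCP2 (0.10), POP2 (0.03) and XRN1 (0.01) were within the SD of 1 spot.

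Between G0 and Y10 again no member differed by 1 log2 unit, against 18.6% of 4427 genes (6.51% higher and 12.1% lower). The median over 9 members was −0.12, and that of all genes −0.03. Only POP2, at −0.66, was beyond the SD of 1 spot for this difference, 0.632, and with sector centring it stood at −0.32. The others ran from −0.40 for EDC3 and −0.33 for DCP1 through −0.16 for DHH1, −0.12 for SCD6 and −0.06 for CCR4 to 0.20 for PAT1, 0.30 for XRN1 and 0.40 for DCP2. The XRN1 value sets 1 spot on Y10 against the mean of 2 on G0, and on the shared spot it was −0.06. LSM1, in the less sure placement, was 0.53 higher than on G0. Both differences share the single G0 array, so an error in a G0 value enters each of them.

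Between Y5 and Y10 the members spread more. DCP1 was lower on Y10 by 1.01 log2 units (2.01-fold), the only member of 9 past 1 unit, where 9.06% of 4435 genes were (3.77% higher and 5.30% lower). POP2 (−0.69) and DHH1 (−0.73) were also lower and SCD6 was higher (0.74), each by more than the SD of 1 spot, 0.559. With sector centring POP2 differed by −0.20 and SCD6 by 0.41, both within that SD. PAT1 differed by −0.34, EDC3 by −0.28, CCR4 by 0.15, XRN1 by 0.29 and DCP2 by 0.30. The median was −0.28, but −0.04 with the arrays scaled to one spread and 0.07 after quantile normalization, so no common direction is given for the members here. DCP1 kept its difference in these settings (−1.15 and −1.08), and that of DHH1 was −0.43 and −0.34, whereas PAT1 moved to −0.04 and 0.07. DHH1 and DCP1 thus had their highest level on Y5 in these settings too, and PAT1 did not after quantile normalization. SCD6 had its lowest level on Y5.

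**Figure D4:**
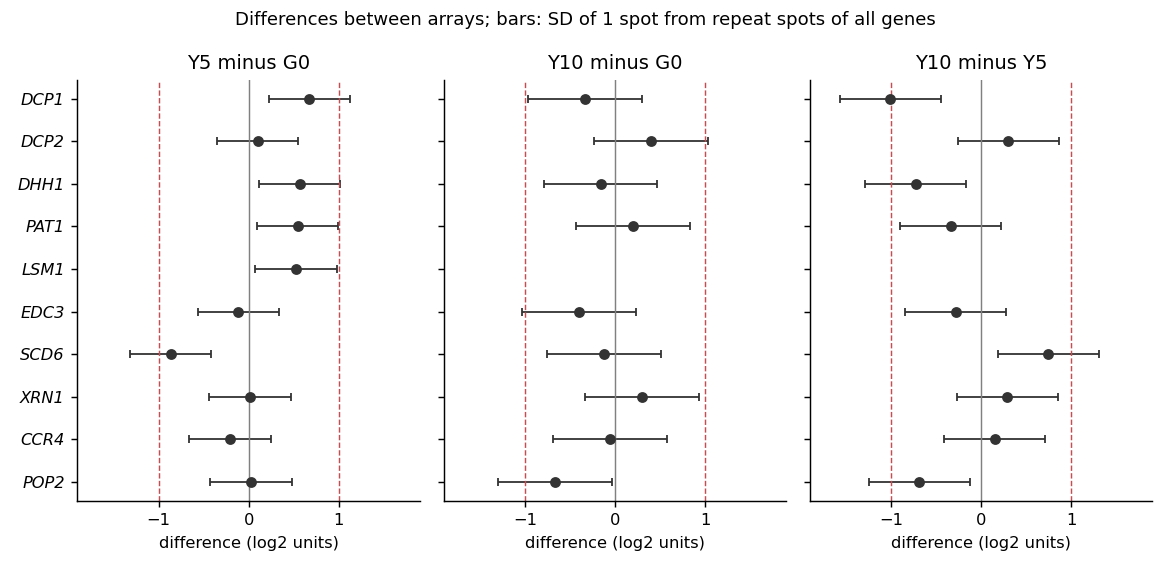
Difference of each member between arrays, in log2 units, for Y5 minus G0, Y10 minus G0 and Y10 minus Y5; bars are the SD of 1 spot from repeat spots of all genes (0.452, 0.632 and 0.559) and dashed lines mark 1 unit. DCP1 in Y10 minus Y5 is the single point past a dashed line, and LSM1 has a value for Y5 minus G0 only.

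Other genes of mRNA decay were described by 7 lists with 56 genes on the platform. None of the 56 was 1 unit higher on Y5 than on G0 and 6 were lower, with a median of 0.14. Of 50 measured on Y10, 3 were higher and 4 lower than on G0, with a median of 0.02. These counts lie near or below the background shares above. The LSM ring subunits LSM2, LSM4, LSM5, LSM6 and LSM7 join LSM1 in the cytoplasm and LSM8 in the nucleus. Their median was −0.49 on G0 and −0.68 on Y5, below LSM1 on both. LSM4 lay above LSM1 on both arrays (0.06 and 0.40), and LSM7 did on G0 (−0.21). LSM7 differed by −1.01 on Y5, and by −0.43 with sector centring.

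Most partners of CCR4 and POP2 had positive differences from G0, and none reached 1 unit with the processing used here. CDC39 (NOT1), the scaffold, CDC36 (NOT2), NOT3, NOT5, MOT2 (NOT4), a ubiquitin ligase, CAF40 and CAF130 had a median difference from G0 of 0.37 on Y5 (5 of 7 above 0, against 49.6% of all genes) and 0.52 on Y10 (5 of 6 above 0, against 48% of all genes). CDC36 (−0.36) and CAF130 (−0.22) were below 0 on Y5 and NOT5 (−0.02) on Y10. Over 6 other ways of processing these medians ran from 0.35 to 0.42 and from 0.40 to 0.76. MOT2 was the highest of them in both differences (0.99 and 0.91). Over the other ways of processing MOT2 ran from 0.67 to 1.03 on Y5 and from 0.91 to 1.17 on Y10. CDC36 was 1.07 higher on Y10 than on Y5, and 0.79 higher with sector centring. CCR4 and POP2 themselves differed from G0 by −0.21 and 0.03 on Y5.

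The poly(A) tail genes lay the other way. PAB1, the poly(A)-binding protein, stood at 1.10, −0.10 and −0.55 on G0, Y5 and Y10, and PBP1, its binding partner, at 1.70, 0.13 and 0.24. Their differences from G0 were −1.19 and −1.58 on Y5 and −1.64 and −1.47 on Y10. After quantile normalization the difference of PAB1 on Y5 was −0.98. PAN2 and PAN3, a second deadenylase, differed by −0.37 and −0.46 on Y5, and PAN2 by −0.60 on Y10. All values of this list were below 0 in both differences under each of 6 other ways of processing, and all 4 genes were above the median on G0. DHH1 and PAT1, which also stood high on G0, were not lower on Y5.

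Among other cap and decapping genes, STM1, a ribosome-bound protein (−1.76), SBP1, a repressor of translation (−1.17), and DCS1, a scavenger decapping enzyme (−1.16), were more than 1 unit lower on Y5 than on G0. EDC1, an enhancer of decapping, was 1.06 higher on Y10 than on G0. With sector centring SBP1 differed by −0.88 and EDC1 by 0.705, and after quantile normalization DCS1 differed by −0.94. The smallest difference of STM1 over the other ways of processing was −1.60. In nonsense-mediated and no-go decay no gene passed 1 unit. Relative to G0 the list had a median of 0.12 on Y5 (7 genes), from HBS1 (−0.55) to DOM34 (0.78). On Y10 its median was 0.57, with 5 of 6 genes above 0, UPF3 highest (0.76) and NAM7 (UPF1), the helicase of this pathway, the one below 0 (−0.86, and −0.48 on Y5). Exosome and Ski genes, which degrade mRNA from the 3′ end, had medians of 0.19 on Y5 and −0.05 on Y10 relative to G0 (16 genes), with RRP40 at −1.23 and LRP1 at 1.11 on Y10. With sector centring RRP40 differed by −0.91 and LRP1 by 0.75.

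mRNA-binding regulators of decay were all higher on Y5 than on G0, 8 of 8 with a median of 0.67, where 49.6% of all genes were above 0. No test was made of this count. PUF4 (0.09), PUB1 (0.23) and VTS1 (0.42) were within the SD of 1 spot for this difference, 0.452. The largest differences were those of CTH1 (0.97), MPT5 (0.87) and WHI3 (0.82), and none passed 1 unit. Over the other ways of processing CTH1 ran from 0.64 to 1.005. WHI3 (1.42), PUF4 (1.32), MPT5 (1.24) and PUB1 (1.01) had Y5 levels at least 1 above the median, as DHH1 and PAT1 did. On Y10 the list was mixed, with CTH1 1.32 higher and PUF4 1.17 lower than on G0. With sector centring CTH1 was 0.88 higher and PUF4 0.86 lower. For 26 translation initiation factors, proteins of the step that DHH1, PAT1 and SCD6 can repress, the medians relative to G0 were −0.03 on Y5 and −0.48 on Y10 (21 genes), with a range on Y5 from −1.52 for CDC33, the cap-binding protein eIF4E, to 1.38 for DED1, a DEAD-box helicase of initiation. The difference between these lists and the members was not tested.

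**Figure D5:**
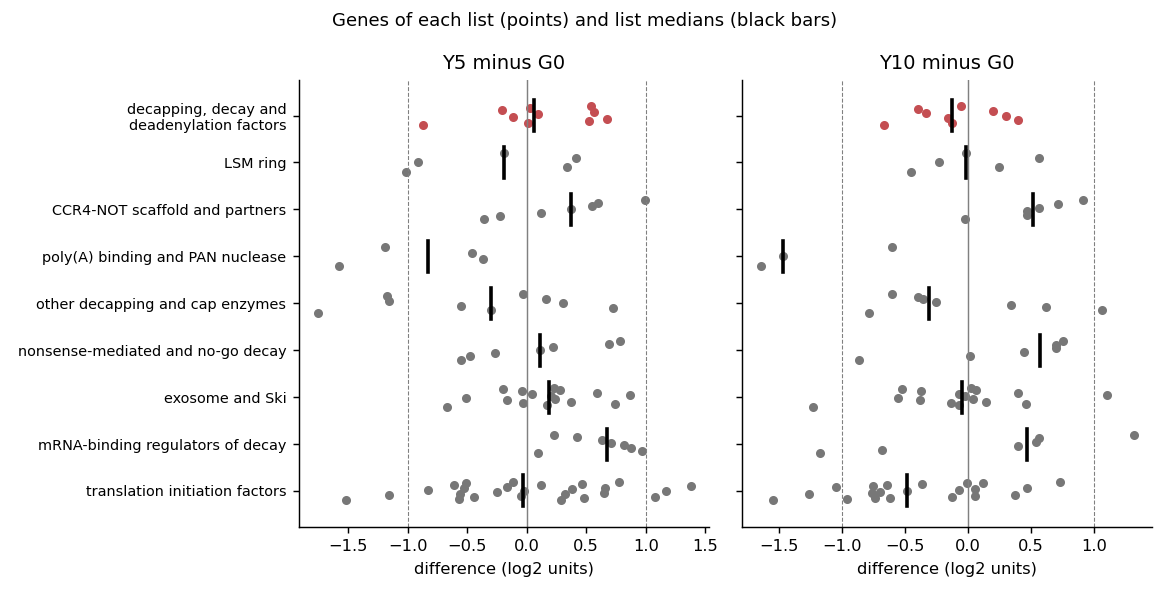
Differences from G0 in log2 units on Y5 (left) and Y10 (right) for the members (red), 7 lists of other mRNA decay genes and the translation initiation factors (grey); each point is a gene, black bars are list medians and dashed lines mark 1 unit. The 4 poly(A) genes lie left of 0 in both panels as far as measured, the mRNA-binding regulators right of 0 on Y5, and no member passes a dashed line.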

How the data were processed

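Per the labels, each of 3 samples was 1 two-colour array. The deposited table holds 1 log2 ratio per spot and array for 8832 spots, with the base of the logarithm assumed; deposited medians were 0.0735 (G0), 0.067 (Y5) and 0.071 (Y10). How the images were scanned, corrected, filtered and centred, and the direction of the ratio, were not found in the labels. Of the spots 6623 had 1 symbol in the platform annotation and 2209 had none. All 5574 genes matched RefSeq assembly R64, whose systematic names and lengths were used. Of these lengths 96.8% are multiples of 3, and they were read as coding lengths. The remaining lengths, such as 416 bases for LSM2, cannot be exact coding lengths. Y10 was renumbered as described above, each array centred on its median over spots, and spots of a gene averaged (pandas 2.3.3, numpy 2.4.6). This left 5548, 5563 and 4446 genes on G0, Y5 and Y10; no filter on low values was used, and of the members only LSM1 lacked a value, on Y10. A size of 1 log2 unit stood in for a test. The SD of 1 spot is the root mean square difference between spots, over genes with 2 measured spots, divided by the square root of 2. The renumbering and averaging steps were run on simulated data numbered by the same rule. That checks the steps only and cannot show whether the rule holds for the real Y10 array. All 10 members are named, with other decay genes past 1 unit or at the ends of a list. The members and lists were chosen with earlier results of these data known.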

Additional observations from a re-analysis of the deposited data

How the results depend on the processing

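No paired analysis was possible because each group held 1 array. Over 10 members, 3 differences and up to 11 settings, 261 values moved by less than the SD of 1 spot and 13 by more. Read as natural logarithms, 1 member in Y5 minus G0 and 3 in Y10 minus Y5 were past 1 unit. With the deposited row numbers of Y10, unrelated to Y5, these counts were 2 in Y10 minus G0 (DCP2 at −3.08 and PAT1 at −2.16, both above 0 as reported) and 4 in Y10 minus Y5 (among them DCP2 at −3.18), and DCP1 in Y10 minus Y5 was at −0.03. In the other settings DCP1 stayed past 1 unit there. Sector centring gave 2 in Y10 minus Y5, adding DHH1 at −1.02, and the last 5 rows of each Y10 sector moved on by 2 rows, a setting chosen after seeing the data, also gave 2, adding SCD6 at 1.55 (0.68 against G0). The median of Y10 minus Y5 was −0.0401 with scaling to one spread and 0.0703 after quantile normalization. Quantile normalization and the restriction to genes on all 3 arrays gave no value for LSM1. Differences taken spot by spot, also added later, changed no count. With no intensities at hand, signal over background could not be judged, and 1 array per sample limits every value.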
